A study of Homo sapiens with 16 samples.

Results

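The genes described here are 41 genes whose transcripts mark cells in S phase, the part of the cell cycle in which DNA is copied. They were taken as a list of named S phase markers. The genes comprise parts of the replication machinery, enzymes that supply nucleotides and histones, and factors that guard replication forks. Of the 41 genes, 40 were matched to a row of the count table, which holds 57773 genes, and all 40 had enough reads to be tested. The exception, UHRF1, was not analysed here.

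RNA-seq was performed on 4 established human lines of clear cell renal cell carcinoma (ccRCC), namely A498, 786-O, 769-P and CAKI-2. Cell populations, not single clones, were transduced with a lentivirus that carried the Cas9 nuclease and a guide RNA and were then selected with puromycin, so that control cells carried Cas9 too. Each line had 1 library of cells with a control guide (sgCtrl) and 2 libraries of cells with guides 4 and 5 against KDM5C (sgKDM5C). The 786-O and CAKI-2 lines also had 2 libraries with guides 2 and 4 against KDM5D (sgKDM5D), giving 16 libraries in 10 groups. KDM5C is a histone demethylase encoded on the X chromosome that removes methyl groups from lysine 4 of histone H3, and KDM5D is its homologue on the Y chromosome. The 2 guides per target are the only replication, each control is 1 library, and nothing in the labels says that libraries came from separate cultures, so p-values measure the spread between guide libraries only.

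Replication starts at origins that are licensed in G1 phase, when the MCM helicase is loaded onto DNA with the help of CDC6. At the onset of S phase CDC45 and the GINS complex turn the loaded helicase into an active one, primase and DNA polymerases copy the strands, and the PCNA clamp holds the polymerases on DNA. Many of these genes are transcribed in late G1 and S phase under the control of E2F transcription factors, so the RNA level of the group in a bulk sample rises with the share of cycling cells. In a bulk sample, fewer cells in S phase and less RNA per cell cannot be told apart.

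The sequence before the start sites of these genes was read from RefSeq promoter entries (GRCh38.p14), which 33 of the 41 genes had. The 250 bases before each start were searched on both strands for 4 octamers of the E2F type, TTTCCCGC, TTTGGCGC, TTTCGCGC and TTTGCCGC. At least 1 octamer was present in 13 of the 33 promoters (39.4%), against 2.79% of all 27305 promoters of the same length, 25% of those of a list of other replication genes (11 of 44) and 4.44% of those of a list of G2/M phase genes (2 of 45). In 10 of the 13 promoters an octamer lay within 100 bases of the start. The pentamer CCAAT was present in 66.7% of the 33 promoters and in 33% of all promoters, and the median number of CpG dinucleotides in 250 bases was 24 against 11. A match is a description of the letters and not evidence of a bound factor.

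The promoters of 4 genes are shown because their genes represent the helicase, the clamp and the member whose levels stood apart from the rest. They are MCM6 (chr2:135876444-135876693, minus strand), MCM7 (chr7:100101398-100101647, minus strand), PCNA (chr20:5126623-5126872, minus strand) and MRPL36 (chr5:1799838-1800087, minus strand). Capitals mark the octamers on either strand, and where octamers of both strands overlapped, as in MCM6, they form 1 run of capitals.
MCM6: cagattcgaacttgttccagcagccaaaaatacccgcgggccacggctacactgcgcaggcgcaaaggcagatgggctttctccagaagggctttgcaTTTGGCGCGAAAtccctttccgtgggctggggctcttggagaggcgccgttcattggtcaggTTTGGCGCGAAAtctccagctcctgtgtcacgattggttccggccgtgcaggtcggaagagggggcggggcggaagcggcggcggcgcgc
MCM7: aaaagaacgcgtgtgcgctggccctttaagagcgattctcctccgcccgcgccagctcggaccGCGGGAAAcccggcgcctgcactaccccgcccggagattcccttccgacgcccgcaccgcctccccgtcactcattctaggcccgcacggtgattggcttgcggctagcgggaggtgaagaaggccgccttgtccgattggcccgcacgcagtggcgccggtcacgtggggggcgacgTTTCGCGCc
PCNA: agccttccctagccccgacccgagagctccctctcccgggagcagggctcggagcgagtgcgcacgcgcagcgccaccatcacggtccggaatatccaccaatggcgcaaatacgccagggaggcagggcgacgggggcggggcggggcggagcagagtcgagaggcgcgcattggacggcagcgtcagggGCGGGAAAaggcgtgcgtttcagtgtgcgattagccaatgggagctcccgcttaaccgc
MRPL36: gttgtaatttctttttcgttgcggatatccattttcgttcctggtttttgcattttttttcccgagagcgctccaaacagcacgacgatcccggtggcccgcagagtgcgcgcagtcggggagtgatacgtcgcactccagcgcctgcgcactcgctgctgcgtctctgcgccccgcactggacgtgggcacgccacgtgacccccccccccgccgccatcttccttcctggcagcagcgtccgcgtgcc
The MCM6 promoter held 4 octamers in 2 overlapping pairs, the MCM7 promoter 2 and the PCNA promoter 1. The window of MRPL36, which encodes a protein of the mitochondrial ribosome, held no such octamer and no CCAAT.

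Total counts ranged from 23398449 in the A498 sgCtrl library to 41617439 in the CAKI-2 sgKDM5C 5 library, and tests covered the 20175 genes whose counts summed to 60 or more. Levels are given as CPM, the counts of a library scaled to a common TMM-normalised size. KDM5C was at 166 to 239 CPM in the 4 controls and at 43.6 to 118 CPM in the 8 sgKDM5C libraries, below the control of the line in each. KDM5D was at 49.2 CPM in the 786-O control against 39.0 and 37.5 CPM in the sgKDM5D libraries, and at 21.2 CPM in the CAKI-2 control against 21.8 and 21.6 CPM, so its RNA level does not check the sgKDM5D label. It had at most 1 count in each A498 and 769-P library (0 to 0.0375 CPM). The renal lineage gene PAX8 and the epithelial keratin genes KRT8 and KRT18 were expressed in all 16 libraries, whereas CA9, a hypoxia target typical of ccRCC, was at 5.55 to 9.53 CPM in A498 and at 0 to 0.0698 CPM elsewhere. Other ccRCC markers of the same list had other orders. NDUFA4L2 was at 27.24 to 50.15 CPM in CAKI-2, 4.354 to 4.596 CPM in A498, 0.3233 to 0.9929 CPM in 786-O and 0 in 769-P. EGLN3 was at 605.6 to 779.1 CPM in A498, 144.1 to 319.3 CPM in 786-O, 87.9 to 124.6 CPM in CAKI-2 and 3.331 to 4.267 CPM in 769-P. The defining markers of leukocytes, endothelium and fibroblasts were under 2 CPM in all 16 libraries. The 4 leukocyte markers were at no more than 0.429 CPM. CDH5, VWF and PDGFRA were highest in CAKI-2, where CDH5 was at 0.783 to 1.87 CPM, VWF at 0.767 to 1.49 CPM and PDGFRA at 1.06 to 1.45 CPM, and the fibroblast genes DCN and LUM were at 0 there. Elsewhere DCN was at no more than 0.285 CPM and LUM at no more than 0.883 CPM.

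The level of the S phase genes was examined first in the 4 lines. Of the 40 genes, 39 had their lowest median in A498, and for 37 of them every A498 library lay below every library of the next line. The matching shares over all genes tested were not computed, so these counts alone do not set the S phase genes apart. In the controls alone, A498 was also lowest for 39 genes, with a median of 8.75% of the 786-O control, whereas 769-P stood at 95.4% and CAKI-2 at 46.6%. The summed level of the 40 genes was 4573 to 4874 CPM in the 5 libraries of 786-O, 3607 to 4098 CPM in the 3 of 769-P, 1887 to 2093 CPM in the 5 of CAKI-2 and 616 to 718 CPM in the 3 of A498. The 4 ranges did not overlap. All 40 genes differed in level between the lines at an adjusted p under 0.05 (edgeR quasi-likelihood test of 3 contrasts jointly), but so did 90.5% of all genes tested (90.9% at an unadjusted p under 0.05), so that the size of the differences says more than their number. The fitted log2 difference between the highest and the lowest line had a median of 3.38 for the S phase genes and of 1.94 for all genes tested. The lines differ in many properties at once, which cannot be told apart here.

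**Figure D1:**
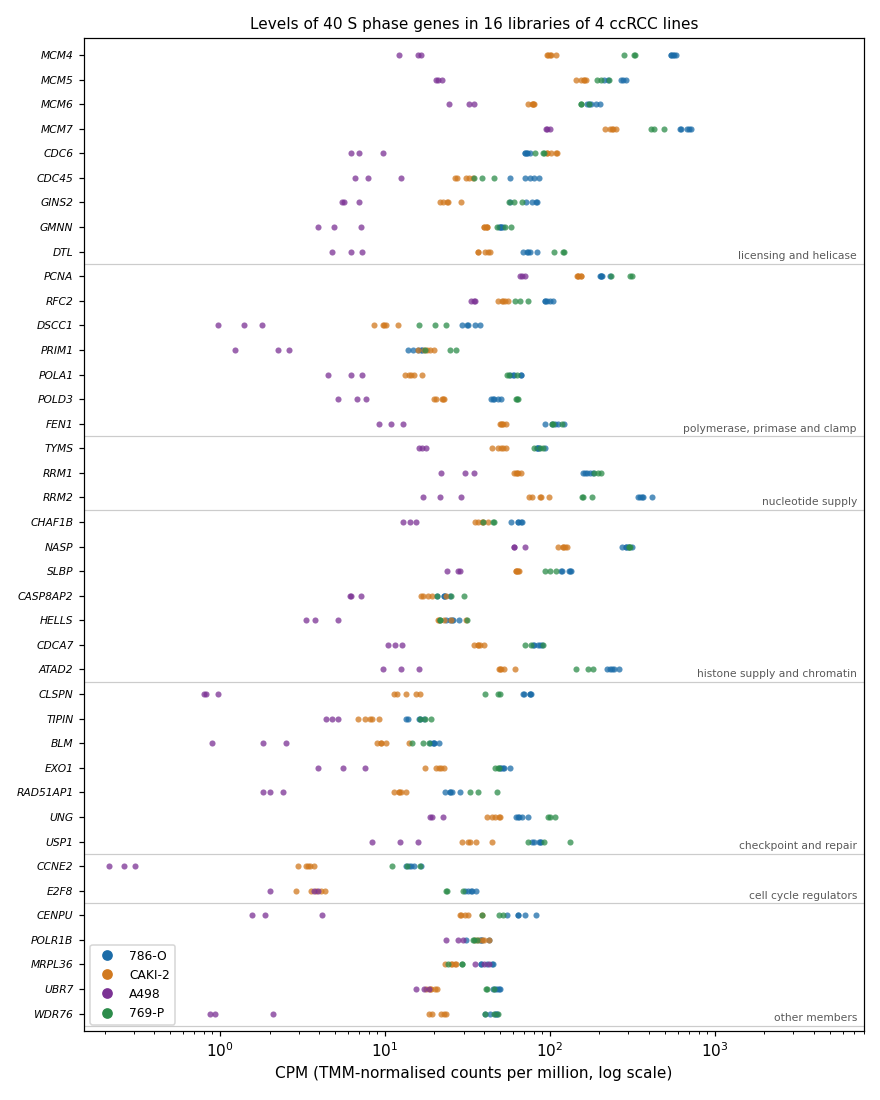
Level of each of the 40 S phase genes in CPM (horizontal log axis), grouped by role, with 1 point per library and colours for the 4 lines. The A498 median is the lowest for 39 of the 40 genes, and the exception is MRPL36. For E2F8 and UBR7 the A498 points overlap with those of CAKI-2.

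By medians over control and edited libraries, the highest line was 786-O for 25 genes, 769-P for 13 and CAKI-2 for 2. These top places were less distinct than the low place of A498. The highest line lay apart from the next one for 14, 6 and 1 of these genes. In the controls alone, 786-O was highest for 21 genes, 769-P for 17 and CAKI-2 for 2. Between 786-O and 769-P, 15 genes were apart with 786-O higher, 8 with 769-P higher and 17 overlapped, with a median ratio of 1.10. CAKI-2 lay in between: 35 genes were lower and apart in CAKI-2 than in 786-O, by a median ratio of 2.10, and 37 were higher and apart in CAKI-2 than in A498, by a median ratio of 3.52. How many of all genes tested lay apart between these lines was not computed. Within a line, control and edited libraries together, the median log2 difference between the highest and the lowest library was 0.495 in A498. It was 0.228 in 786-O, 0.260 in 769-P and 0.280 in CAKI-2. The widest differences were 1.493 for BLM in A498, 0.843 for USP1 in 769-P, 0.651 for BLM in CAKI-2 and 0.59 for CENPU in 786-O.

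Of the licensing and helicase genes, MCM4 to MCM7 encode subunits of the helicase. MCM4 had the widest range of these, with a median of 563 CPM (546 to 583) in 786-O, 324 CPM (282 to 329) in 769-P, 99.9 CPM (96.1 to 109) in CAKI-2 and 15.9 CPM (12.2 to 16.7) in A498, a ratio of 35.4 between the highest and lowest medians. MCM6 spanned a ratio of 5.49, from 177 CPM (169 to 201) in 786-O to 32.3 CPM (24.5 to 34.9) in A498. The helicase subunits therefore did not differ between lines by a common factor. Per kilobase of the canonical transcript, MCM4 stood at a median of 0.523 of the level of MCM7 in 786-O, 0.402 in 769-P, 0.257 in CAKI-2 and 0.096 in A498. The A498 range (0.077 to 0.106) lay below that of CAKI-2 (0.245 to 0.280), which lay below those of 769-P (0.400 to 0.487) and 786-O (0.474 to 0.564), and the last pair overlapped. MCM6 to MCM7, by contrast, had median ratios of 0.175, 0.239, 0.215 and 0.211 in the same order, and the A498 range (0.168 to 0.241) overlapped with the range of each of the other lines.

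CDC6, which loads the helicase, was the exception in its order and was highest in CAKI-2, at 102 CPM (96.0 to 111) against 91.1 CPM (81.7 to 91.7) in 769-P, 72.4 CPM (70.3 to 75.5) in 786-O and 6.92 CPM (6.21 to 9.68) in A498. CDC45 and GINS2, which activate the helicase, were highest in 786-O, with medians of 76.2 and 77.9 CPM against 7.87 and 5.66 CPM in A498. GMNN, the inhibitor of a second round of licensing, was at nearly the same level in 786-O (50.3 CPM) and 769-P (53.9 CPM), where the libraries overlapped, and at 4.91 CPM in A498. DTL, the part of a ubiquitin ligase that directs the destruction of the licensing factor CDT1, was highest in 769-P, at 121 CPM (106 to 123) against 73.6 CPM (69.0 to 83.3) in 786-O and 6.28 CPM in A498.

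Among the genes of polymerases, primase and clamp, PCNA had a narrower range than most, with medians of 306 CPM (235 to 317) in 769-P, 206 CPM (202 to 231) in 786-O, 148 CPM (146 to 155) in CAKI-2 and 68.3 CPM (65.6 to 70.8) in A498. RFC2, a subunit of the loader of the clamp, differed least in this group, by a ratio of 2.75. DSCC1, a subunit of an alternative loader, differed most, from 31.8 CPM in 786-O to 1.41 CPM in A498. POLA1 and PRIM1, the catalytic subunits of the complex that makes the primers, had different orders. POLA1 was at 60.7 CPM (57.5 to 66.8) in 786-O and 14.4 CPM (13.2 to 16.7) in CAKI-2, whereas PRIM1 was at 15.8 CPM (13.8 to 16.7) and 18.1 CPM (15.8 to 19.7), and the 2 lines overlapped. Per kilobase, the ratio of PRIM1 to POLA1 was 0.859 to 1.06 in the libraries of 786-O and 3.97 to 5.27 in those of CAKI-2. FEN1, the nuclease that trims Okazaki fragments, and POLD3, an accessory subunit of polymerase delta, were 9.84 and 9.32 times higher in the top line than in A498.

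Nucleotide supply is represented by TYMS, which makes thymidylate, and by RRM1 and RRM2, the subunits of ribonucleotide reductase. RRM2, the subunit that is limiting in the cell cycle, was at 363 CPM (345 to 418) in 786-O, 160 CPM (157 to 180) in 769-P, 87.8 CPM (75.01 to 98.7) in CAKI-2 and 21.7 CPM (16.9 to 28.9) in A498. RRM1 differed less and was highest in 769-P, at 198 CPM (187 to 205) against 30.6 CPM (22 to 35) in A498. Per kilobase the RRM2 to RRM1 ratio was thus highest in 786-O, at a median of 2.15 (1.81 to 2.39), and lowest in A498, at 0.742 (0.598 to 0.911), a range that overlapped with that of 769-P (0.781 to 0.847). TYMS had medians of 87.4 CPM in 769-P, 84.9 CPM in 786-O, 50.7 CPM in CAKI-2 and 16.7 CPM in A498, and 39.9% of its exonic length is shared with ENOSF1 on the other strand, which leaves its level uncertain, as the use of strand in counting is not given.

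The genes for histone supply and chromatin spanned ratios of 4.05 to 19.1 between lines. ATAD2, an ATPase with a bromodomain, was at the upper end, with 239 CPM (222 to 264) in 786-O and 12.5 CPM (9.75 to 16.1) in A498. CASP8AP2, NASP, CHAF1B and SLBP, which serve the transcription, storage, deposition and mRNA processing of histones, were at the lower end, with ratios of 4.05, 5, 4.51 and 4.75. HELLS, a chromatin remodeller, and CDCA7, its partner, had ratios of 6.76 and 7.45. HELLS was one of the genes whose libraries overlapped among 786-O, CAKI-2 and 769-P, with medians of 25.5, 22.9 and 21.6 CPM, against 3.77 CPM in A498.

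By the fitted log2 difference between lines, the widest ranges were those of CLSPN (6.35), CCNE2 (5.84) and MCM4 (5.29), with WDR76 close behind (5.26). CLSPN (chromosome 1, 36185819 to 36235579 on GRCh37) encodes claspin, the adaptor through which stalled forks activate the checkpoint kinase CHK1, and was at 75.7 CPM (68.4 to 77.3) in 786-O, 48.7 CPM (40.4 to 50) in 769-P, 13.4 CPM (11.4 to 16.3) in CAKI-2 and 0.826 CPM (0.799 to 0.979) in A498. Its median was thus 91.6 times higher in 786-O than in A498, where it rests on 21 to 23 counts per library. The joint edgeR test of the 4 lines, on sgCtrl and sgKDM5C libraries, gave an adjusted p of 2.07e-11. That test measures error by the spread between guide libraries only. CCNE2, or cyclin E2, which drives entry into S phase, was at 14.5 CPM (13.5 to 16.7) in 786-O and at 0.263 CPM (0.213 to 0.304) in A498, which there rests on 5 to 8 counts per library. Exons of INTS8 overlap 37% of the exonic length of CCNE2. E2F8, a repressor of E2F targets, showed a different split, with 33.1 CPM in 786-O and 23.7 CPM in 769-P but 3.85 CPM (2.90 to 4.36) in CAKI-2 and 3.72 CPM (2 to 3.92) in A498, where the libraries overlapped.

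The other checkpoint and repair genes were also lowest in A498. BLM, a helicase that dissolves recombination intermediates, was at 19.8 CPM (18.9 to 21.2) in 786-O and at 1.83 CPM (0.894 to 2.52) in A498. RAD51AP1, a cofactor of homologous recombination, had its highest median in 769-P, at 36.8 CPM (32.7 to 48.2), 18.3 times that of A498. UNG, the glycosylase that removes uracil from DNA, and USP1, which removes ubiquitin from PCNA, were likewise highest in 769-P, at 101 and 92.2 CPM against 19.3 and 12.3 CPM in A498. EXO1, an exonuclease of mismatch repair, was at 52.2 CPM in 786-O and 5.59 CPM in A498. TIPIN, a protein that protects the fork, had the smallest ratio of the group, at 3.64, and shares 21.1% of its exonic length with a pseudogene.

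The remaining 5 genes have less direct links to replication, and 2 of them differed little between lines. MRPL36 (chromosome 5, 1798499 to 1801480 on GRCh37) was at 41.6 CPM (38.3 to 45.6) in 786-O, 39.8 CPM (35.1 to 42.7) in A498, 29.4 CPM (24.3 to 29.5) in 769-P and 25.6 CPM (23.2 to 26.9) in CAKI-2. POLR1B, a subunit of RNA polymerase I, had the narrowest range, from 38.6 CPM in CAKI-2 to 27.7 CPM in A498 (fitted log2 difference 0.66, adjusted p = 0.0026, edgeR). CENPU, a kinetochore protein, and WDR76, a protein with WD repeats, had wide ranges instead, with ratios of 34.6 and 49.9 between 786-O and A498. UBR7, of the UBR-box family, was at 47.7 CPM in 786-O and overlapped between CAKI-2 (17.8 to 20.6 CPM) and A498 (15.5 to 18.6 CPM), and it shares 14.6% of its exonic length with another gene.

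Per kilobase of canonical transcript, PCNA and MCM7 were among the 3 highest members in all 4 lines. Their medians were 161 and 275 CPM per kilobase in 786-O, 240 and 173 in 769-P, 116 and 96.5 in CAKI-2 and 53.6 and 38.9 in A498. The third place differed and was taken by MCM4 in 786-O (139), MCM5 in CAKI-2 (46.5), NASP in 769-P (94.1) and MRPL36 in A498, where it was in fact the highest (65.3). The lowest 3 were BLM, CASP8AP2 and POLR1B in both 786-O (3.78, 3.75 and 5.06) and 769-P (3.24, 4.16 and 4.64). In CAKI-2 they were E2F8 (1.04), CCNE2 (1.28) and CLSPN (1.57), and in A498 CLSPN (0.0970), CCNE2 (0.0983) and WDR76 (0.238).

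**Figure D2:**
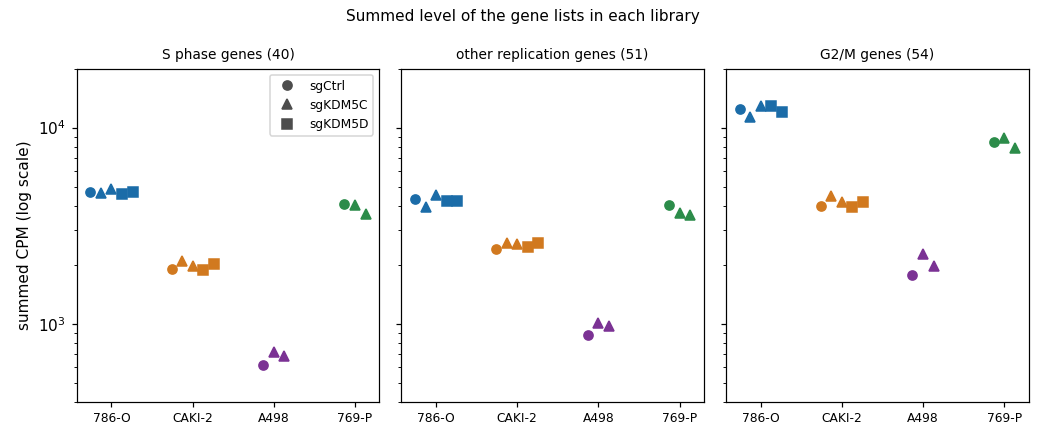
Summed CPM (vertical log axis) of the 40 S phase genes, of 51 other replication genes and of 54 G2/M genes, with 1 point per library, shapes for the guide target and colours for the lines as in the plot of levels by gene. In each panel A498 is lowest and 786-O and 769-P are highest, and the S phase sum of A498 is 616 to 718 CPM.

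The low level in A498 extended to both neighbouring lists. The 51 other replication genes, which hold further helicase, polymerase and origin factors, summed to 873 to 1003 CPM in A498, 2397 to 2587 CPM in CAKI-2, 3599 to 4022 CPM in 769-P and 3957 to 4550 CPM in 786-O. The 54 G2/M genes, which act in mitosis, summed to 1768 to 2276 CPM in A498 and to 11380 to 12960 CPM in 786-O. The median fitted log2 range between lines was 2.71 for the other replication genes and 3.21 for the G2/M genes, against 3.38 for the S phase genes.

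To find out whether KDM5C mutation altered these genes, both sgKDM5C libraries of a line were set against its own sgCtrl library. No S phase gene passed an adjusted p of 0.05 in any line, whether by edgeR or by DESeq2. At an unadjusted p under 0.05, edgeR gave 15 members in A498, 1 in CAKI-2 and 0 in 786-O and in 769-P, and DESeq2 gave 16, 0, 0 and 0. The call rate over all genes at an adjusted p was itself 0.00496% in A498, 0.00496% in 769-P, 0% in CAKI-2 and 0.00991% in 786-O, so that a count of 0 of 40 does not set the S phase genes apart. The position of the 40 genes as a group varied between lines, however, and A498 lay farthest from its control. In each line all 40 values share 1 control library, and the group position was not tested.

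In A498, 35 of the 40 genes had a log2 fold change above 0, against 52.5% of all genes tested, and the median was 0.413 against 0.023. Both guides lay above the control for 27 genes (67.5%, against 37.9% of all genes) and below it for 3 (7.50%, against 36.5%). Single genes did not pass the adjusted test, but 15 of the 40 were higher at an unadjusted p under 0.05, where 3.54% of all genes were, and none was lower, where 2.01% of all genes were (5.55% in either direction). The median was 0.242 without guide 4 and 0.390 without guide 5, with 10 and 13 genes at that unadjusted p. The summed level was 616 CPM in the control and 718 and 688 CPM with guides 4 and 5. All 3 values rest on the same control, which had the lowest total count of the 16 libraries, and its part in the result was not tested.

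**Figure D3:**
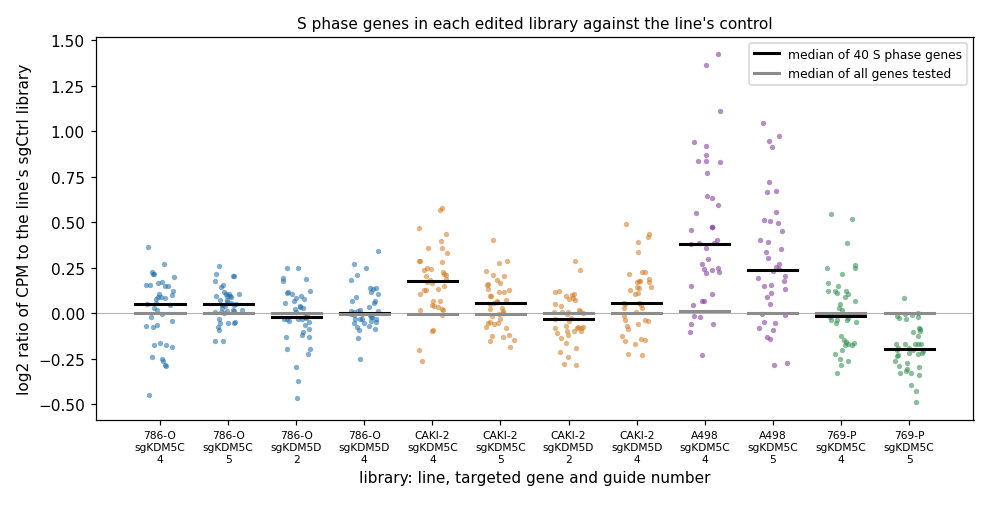
Log2 ratio of CPM to the sgCtrl library of the line (prior count of 2) for the 40 S phase genes in each of the 12 edited libraries, with black bars for their median and grey bars for that of all genes tested. The black bars are at 0.382 and 0.238 in A498 and at -0.015 and -0.197 in 769-P, and the grey bars lie within 0.01 of 0.

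The highest fold changes in A498 were those of BLM, PRIM1 and CENPU. BLM (chromosome 15, 91260577 to 91359396 on GRCh37) was at 0.894 CPM in the control and at 2.52 and 1.83 CPM with guides 4 and 5, from 21, 67 and 48 counts (log2 fold change 1.28, SE 0.396, edgeR adjusted p = 0.828, higher in 2 of 2 libraries). PRIM1 (chromosome 12, 57124222 to 57146158) was at 1.23, 2.25 and 2.63 CPM (0.98, SE 0.343, adjusted p = 0.88). CENPU was at 1.57, 4.17 and 1.86 CPM (0.94, SE 0.448, adjusted p = 0.882), so that guide 4 accounts for most of its difference, and 14.9% of its exonic length overlaps another gene. E2F8, added after its values were seen because it had the smallest unadjusted p (0.00273), was at 2 CPM in the control and at 3.72 and 3.92 CPM (log2 fold change 0.93, SE 0.256, adjusted p = 0.749).

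The lowest fold changes in A498 belonged to CLSPN, MRPL36 and RFC2, and they were small. CLSPN was at 0.979 CPM in the control and at 0.826 and 0.799 CPM, on 21 to 23 counts per library (log2 fold change -0.27, SE 0.370, edgeR adjusted p = 0.948). MRPL36 was at 42.7 CPM and at 39.8 and 35.1 CPM (-0.19, SE 0.187, adjusted p = 0.915). RFC2 was at 35.1 CPM and at 34.8 and 33.1 CPM (-0.05, SE 0.160, adjusted p = 0.993). Each of them lay below the control with both guides.

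By role, all 9 licensing and helicase genes had a log2 fold change above 0 in A498, from 0.01 for MCM5 to 0.63 for CDC45, with a median of 0.42. The examples that follow were chosen after their values were seen. The abundant MCM7 hardly differed between the A498 libraries, at 96.0, 101 and 95.2 CPM, whereas MCM6 was at 24.5 CPM in the control and 32.3 and 34.9 CPM with the guides. The genes of polymerases, primase and clamp had a median of 0.48, with 5 of 7 above 0. PCNA lay on both sides of the control, at 68.3 CPM in the control and 65.6 and 70.8 CPM. The nucleotide supply genes had a median of 0.58, with RRM1 at 22, 30.6 and 35 CPM and RRM2 at 16.9, 28.9 and 21.7 CPM. The checkpoint and repair genes had a median of 0.27 and the histone and chromatin genes the smallest median, 0.11, with ATAD2 at 9.75, 12.5 and 16.1 CPM. The 9 genes with a mean of under 100 counts in A498 had a median of 0.71, and the 31 genes with 100 or more had 0.29 with 27 of them above 0.

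The neighbouring lists lay above the A498 control too. Of the 51 other replication genes, 47 had a log2 fold change above 0 (median 0.192), with 12 higher and 1 lower at an unadjusted p under 0.05. The lower one was POLE2, a subunit of polymerase epsilon, at -1.49 on a mean of 21 counts. Of the 54 G2/M genes, 51 lay above 0 (median 0.683) and 34 were higher at an unadjusted p under 0.05. The G2/M genes CKAP2L, TTK and HMMR had the highest values, at 1.48 (adjusted p = 0.317, edgeR), 1.25 (0.88) and 1.15 (0.828). None of either list passed the adjusted test.

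In CAKI-2, 34 of the 40 genes had a log2 fold change above 0, against 49.8% of all genes tested, and the median was 0.118 against 0. Both guides were above the control for 24 genes (60%, against 31.8% of all genes) and below it for 4 (10%, against 33.3%), and the library medians were 0.176 with guide 4 and 0.055 with guide 5. E2F8, CLSPN and CDC45 were highest. E2F8 was at 2.90 CPM in the control and at 4.36 and 3.85 CPM (log2 fold change 0.50, SE 0.229, edgeR adjusted p = 1). It was the 1 member at an unadjusted p under 0.05, where 1.3% of all genes were higher and 1.94% differed in either direction. CLSPN was at 11.8, 16.3 and 13.4 CPM (0.33, SE 0.212) and CDC45 at 26.7, 34.3 and 32.3 CPM (0.32, SE 0.249). UNG, MRPL36 and POLR1B were lowest, at -0.20, -0.13 and -0.12.

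In 786-O the group lay close to its control. The median log2 fold change was 0.028, 26 of the 40 genes were above 0 (49.6% of all genes) and the values ran from -0.17 to 0.22, with none of the 40 at an unadjusted p under 0.05 (2.92% of all genes). Both guides were above the control for 19 genes (47.5%, against 24.2% of all genes) and below it for 4 (10%, against 25.9%). POLA1, at 57.5 CPM in the control and 66.7 and 66.8 CPM with the guides (0.22, SE 0.171), CENPU (0.20) and PRIM1 (0.19) were highest. CLSPN, at 77.3, 68.4 and 69.6 CPM (-0.17, SE 0.200), MRPL36 (-0.14) and RFC2 (-0.08) were lowest among the genes below the control with both guides. GINS2 (-0.15) and MCM5 (-0.10) had 1 guide on either side.

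In 769-P the genes lay on the other side, mainly with 1 guide. The median log2 fold change was -0.086, and 30 of the 40 genes were below 0, against 8817 of all 20175 genes tested. Above 0 were 10 of the 40 (25%), against 52% of all genes. Guide 5 was below the control for 38 of the 40 genes (library median -0.197) and guide 4 for 21 (library median -0.015). Both guides were below it for 21 genes (52.5%, against 29.1% of all genes) and above it for 2 (5%, against 27.2%). None of the 40 was at an unadjusted p under 0.05 (3.32% of all genes). E2F8, at 29.7 CPM in the control and 23.7 and 23.5 CPM with the guides (-0.34, SE 0.198), CDC45, at 46.1, 38.7 and 35 CPM (-0.32, SE 0.243), and MCM7, at 493, 410 and 427 CPM (-0.24, SE 0.154), were lowest. POLR1B (0.06) and HELLS (0.30) are the pair counted above the control, but HELLS was at 21.62 CPM in the control and at 31.65 and 21.63 CPM with the guides, so that guide 5 was level with the control. All 9 licensing and helicase genes and all 7 genes of polymerases, primase and clamp had values below 0.

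**Figure D4:**
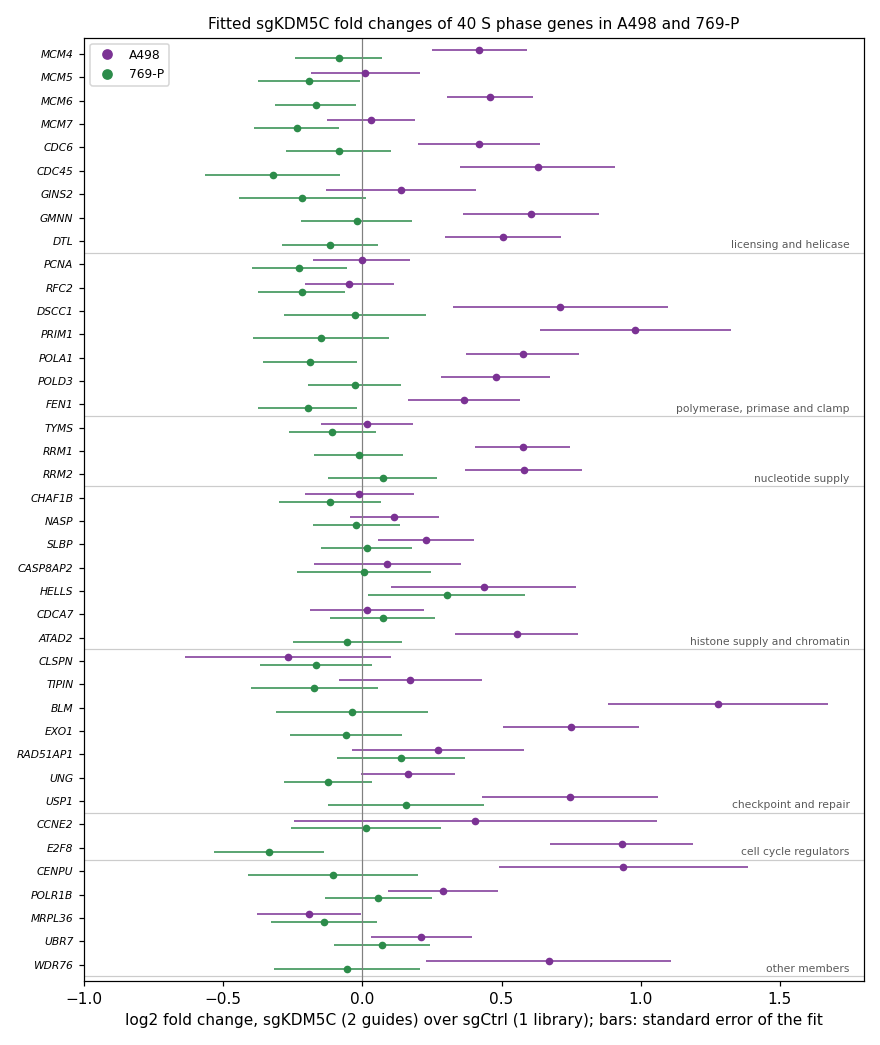
Fitted log2 fold change of sgKDM5C over sgCtrl (horizontal axis, bars are standard errors) for the 40 S phase genes in A498 and 769-P, grouped by role. In A498, 35 of the 40 points lie above 0, and in 769-P, 30 of the 40 lie below 0, and no gene passed the adjusted test in either line.

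Averaged over the 4 lines, no S phase gene passed the adjusted test (0.00991% of all genes did), the median log2 fold change was 0.106 against 0.037 for all genes, and 31 of the 40 were above 0 (57.7% of all genes). At an unadjusted p under 0.05, 3 genes were higher, where 3.43% of all genes were (5.18% in either direction), and DESeq2 gave 4. These were BLM (0.39, SE 0.155), E2F8 (0.29, SE 0.111) and RRM2 (0.26, SE 0.0998), each with an edgeR adjusted p of 0.901, and they are named here after their values were seen. The 3 became 0 without the A498 line, 1 without CAKI-2 and 12 without 769-P. Leaving out 1 library gave 1 without CAKI-2 guide 4, 5 without CAKI-2 guide 5, 6 without 786-O guide 5, 7 without A498 guide 5 and 10 without 769-P guide 5. PRIM1 was above the control in 7 of 8 libraries (0.28, SE 0.138). HELLS was above it in 6, below it in 1 and level with it in 1 (0.26, SE 0.147). MRPL36, at -0.15 (SE 0.0939), was the 1 gene of the 40 on the same side of the control, below it, in all 8 libraries. With guide 5 in 769-P it was nearly level with the control, at 29.44 CPM against 29.53 CPM (log2 ratio -0.004). The share of all genes on the same side in all 8 libraries was not computed.

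The test of whether the sgKDM5C effect differed between lines called 0 of the 40 genes (0% of all genes). E2F8 was the 1 member at an unadjusted p under 0.05, where 2.29% of all genes were, and DESeq2 gave 2. The E2F8 fold change was 0.93 in A498, 0.50 in CAKI-2, 0.07 in 786-O and -0.34 in 769-P. Both guides of a line stood on the same side of the control in all 4 lines.

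The 2 guides against KDM5C were also compared with each other over the 4 lines, without the controls. No member differed at an adjusted p under 0.05 (0% of all genes), and 27 of the 40 were higher with guide 4 (49.3% of all genes). CENPU was higher with guide 4 in all 4 lines (0.47, SE 0.151, edgeR adjusted p = 0.936, unadjusted p = 0.00851), with 4.17 and 1.86 CPM in A498, 52.2 and 39.0 CPM in 769-P, 82.5 and 64.5 CPM in 786-O, and 38.8 and 30.6 CPM in CAKI-2 for guides 4 and 5. HELLS was higher with guide 4 as well (0.37, SE 0.148, unadjusted p = 0.0265), and these 2 were the members at an unadjusted p under 0.05, where 3.86% of all genes were. DESeq2 gave 2 as well. BLM followed at 0.30, and POLR1B, UNG and MRPL36 had the lowest values, from -0.17 to -0.15.

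Guides against KDM5D were used in 786-O and CAKI-2, where the gene is expressed. The RNA level of KDM5D does not show whether it was mutated in these cells. The 40 genes stayed near the control in both lines, with medians of -0.001 and 0.022 and with 20 and 22 genes above 0 (49.2% and 49.9% of all genes). No member passed an adjusted p of 0.05 (0.0149% and 0% of all genes) or an unadjusted p of 0.05 (1.82% and 0.773%) by either tool. Both guides were above the control for 10 genes in 786-O (25%, against 35.3% of all genes) and below it for 11 (27.5%, against 31.8%). In CAKI-2 the counts were 15 (37.5%, against 32.1%) and 11 (27.5%, against 32.2%). In 786-O, PRIM1, DSCC1 and WDR76 were highest at 0.22, 0.22 and 0.21, and CDC45, at 80.0 CPM in the control and 57.8 and 76.2 CPM with guides 2 and 4 (-0.26, SE 0.240), MCM5 (-0.20) and MRPL36 (-0.19) were lowest. In CAKI-2, E2F8 was highest, at 2.90 CPM in the control and 3.55 and 4.10 CPM (0.40, SE 0.231), followed by TIPIN (0.34) and GINS2 (0.27), and POLR1B was lowest, at 42.8, 35.2 and 36.7 CPM (-0.25, SE 0.189). These comparisons use the control libraries that the sgKDM5C comparisons use. For E2F8 in CAKI-2 all 4 edited libraries lay above that 1 control.

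Averaged over 786-O and CAKI-2, the sgKDM5D effect had a median of 0.022, with 0 members called (0% of all genes) 0 at an unadjusted p under 0.05 by either tool (1.5%) and 23 of the 40 above 0 (51.2% of all genes). E2F8 (0.24, SE 0.153), POLA1 (0.14) and WDR76 (0.13) were highest. POLR1B had the lowest value, and among the genes below the control in at least 3 of the 4 libraries MRPL36, RAD51AP1 and CENPU were lowest, at -0.11, -0.11 and -0.09.

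The direct comparison of sgKDM5C with sgKDM5D does not involve the control. No member differed at an adjusted p under 0.05 in 786-O (0.0644% of all genes) or CAKI-2 (0% of all genes), and none did at an unadjusted p under 0.05 (4.78% and 3.38%) by either tool. The medians were 0.011 and 0.082, with 21 and 31 of the 40 genes above 0 (50.3% and 49.5% of all genes). In 786-O, MCM6 was highest among the genes whose groups did not overlap, at 201 and 191 CPM with sgKDM5C and 169 and 177 CPM with sgKDM5D (0.18, SE 0.120), and CLSPN was lowest, at 68.4 and 69.6 CPM against 75.7 and 76.3 CPM (-0.14, SE 0.164). In CAKI-2, CASP8AP2 was highest, at 23.4 and 19.2 CPM against 17.04 and 16.5 CPM (0.34, SE 0.198), and UNG was the 1 gene that met the rule on the low side, at 41.5 and 44.7 CPM against 46.4 and 49.1 CPM (-0.15, SE 0.132).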

How the data were processed

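RNA was extracted with the NucleoSpin RNA kit and paired-end sequenced on an Illumina NovaSeq from libraries of the TruSeq Stranded type. Raw counts per gene were deposited by the authors as whole numbers with no normalization. The submitters' processing notes name Trimmomatic 0.38, STAR 2.5.2b and the GRCh37 build. The tool that counted reads, its annotation and its strand setting are not given in the sources used here, so overlapping genes may share reads.

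Groups were line by guide target, taken from the labels. The 20175 genes whose counts summed to 60 or more were tested with the edgeR 4.0.16 quasi-likelihood F-test in R 4.3.3, with TMM normalisation and 1 mean per group over all 16 libraries, leaving 6 residual degrees of freedom. Each contrast was adjusted over all genes tested by the Benjamini-Hochberg method. Standard errors (SE) were derived as the absolute log2 fold change over the root of F. The test of levels compared the means of the sgCtrl and sgKDM5C groups of each line. The comparison of guides used the 8 sgKDM5C libraries (18205 genes, 3 residual degrees of freedom). For single libraries, log2 ratios to the control had a prior count of 2 added. The common biological coefficient of variation was 15.2%. The fits were also run on simulated counts with known changes, and the outcome is not reported here or used as support.

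Symbols were matched through an annotation lifted to GRCh37, and 40 of 41 members were found. UHRF1 is not reported beyond its promoter. The members and lists were chosen with earlier results of these data known. Members were named when called, and otherwise up to 3 with the highest and 3 with the lowest log2 fold change per comparison, among those with a mean of at least 20 counts and both edited libraries on 1 side of the control (all but 1 for means over lines, groups apart for sgKDM5C against sgKDM5D). For levels, the 3 highest and 3 lowest per kilobase in each line and the 3 with the widest range were named.

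Guides 4 and 5 against KDM5C were the same in each line, but the difference between them was not shared by all lines. It correlated between pairs of lines with r from -0.191 to 0.249 over 13422 genes. Alternatives were RLE size factors, DESeq2 1.42.0, filterByExpr, no filter, a block for guide number, a fit of each line alone, an additive fit of line and genotype, and leaving out libraries or lines. Control libraries could not be left out, as each line has 1.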

Additional observations from a re-analysis of the deposited data

Results flagged for a closer look

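These values were picked out because both sgKDM5C guides of 1 line lay above the control and both of another line lay below it. The difference between those 2 lines was not tested for any of them. The joint test over 4 lines called 0 of 40 members, with E2F8 at an unadjusted p of 0.00817.

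The median log2 ratio of the 40 S phase genes to sgCtrl was 0.416 higher in A498 than in 769-P, as the mean of the 2 guides in each line. There were 11 members with both guides above the control in A498 and both below it in 769-P. Of all genes tested, 37.9% had both guides above the control in A498 and 29.1% had both below it in 769-P. The share of all genes that met both conditions was not computed. Among the members named for a single line, 8 of 13 had such a pair of lines. The naming rule required both guides on 1 side of the control, which favours such pairs, and no share over all genes was computed. Between A498 and 769-P, the E2F8 ratio differed by 1.24, CDC45 by 0.91 and POLA1 by 0.75 on the log2 scale. CAKI-2 exceeded 769-P by 0.39 for MCM7 and by 0.29 for RFC2. CAKI-2 exceeded A498 by 0.57 for CLSPN, which had 21 to 23 counts in each A498 library. A498 exceeded CAKI-2 by 0.41 for POLR1B and by 0.36 for UNG. No group had 4 libraries, so single libraries could not be examined as outliers.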

How the results depend on the processing

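The number of S phase genes called at an adjusted p under 0.05 was 0 in each comparison with a control, between guides and between targets, and 40 for the levels of the lines, under each of the alternatives run. A fit of A498 alone called 348 genes against 1 in the fit of all libraries, DESeq2 38 and the test without a filter 33, none of them an S phase gene. The 536 recomputed fold changes of named members kept their sign and call. This outcome was largely fixed by the naming rule, which put both edited libraries of a line on 1 side of the control. Leaving out 1 guide could thus hardly reverse a sign. The smallest adjusted p of a member against a control was 0.749 (edgeR), so a change of call was unlikely too.

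In A498 the median of the 40 genes was 0.404 to 0.419 under other normalisation, filters or DESeq2 and 0.397 in A498 alone, and it was 0.242 without guide 4 and 0.390 without guide 5. The 15 genes at an unadjusted p under 0.05 became 10 and 13. With the guide number as a block, 15 genes stayed at that threshold and the median was 0.407, and the block changed no call at an adjusted p. The fit without that block did not pair the libraries by guide number.

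For the mean over lines, the 3 genes at an unadjusted p became 5 with no filter, 1 with an additive fit of line and genotype, 1 without CAKI-2, 0 without A498 and 12 without 769-P. Leaving out 1 library gave 1 to 10. The control libraries, 1 per line, could not be left out. In A498, CCNE2 (5 to 8 counts) and CLSPN (21 to 23 counts) were measured too thinly for differences of the size seen elsewhere.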
